A study of Citrus reticulata with 36 samples.

Results

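The integument of ponkan mandarin (Citrus reticulata) ovules was compared between 28 and 18 days after pollination (DAP) in 12 of the 36 RNA-seq libraries of a study of ovule tissues. All 12 were chosen by their labels alone: integument cells taken by laser capture microdissection, a method that cuts selected cells out of a thin tissue slice under a microscope. The 28 DAP libraries, 6 in all, were 3 of Huagan No.4 ponkan (labelled MT) and 3 of Egan No.1 ponkan (labelled WT), and the 18 DAP libraries were likewise 3 of MT and 3 of WT. MT is not spelled out in the labels and serves here as a name, and the labels give no treatment, age or source of the trees. Each cultivar stands for its group as 1 genotype, and the series' design text calls the 3 libraries of a group biological replicates without saying how ovules were assigned to them. The other 24 libraries were integument at 32 DAP and nucellus at 18, 28 and 32 DAP from the same cultivars, in groups of 3, and they entered the model that estimated the spread between replicates. The count table numbers its stages 1, 2 and 3, which were taken as 18, 28 and 32 DAP, following the sequence in the design text.

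The integument is the maternal tissue that wraps the nucellus in an ovule and leaves a narrow opening, the micropyle. After pollination and fertilisation its cells divide, enlarge and differentiate, and it becomes the seed coat, while the nucellus inside it surrounds the embryo sac. In many citrus types, embryos also form asexually from nucellar cells. Transcripts of the integument at successive days therefore describe the early part of seed coat development.

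The deposited tables list sequence features by identifiers such as c280_g1 and do not pair them with gene names, so features are described here by their levels, their change in each cultivar, their tissue difference and their level at 32 DAP, and no role can be given to any of them. Levels are in CPM, a library's counts scaled to a fixed total after TMM scaling, a factor per library that balances the bulk of the features. A change is the log2 of the 28 DAP level over the 18 DAP level, so positive values mean higher at 28 DAP. Of 128861 features in the table, 57344 had enough counts to be tested, and a feature was called changed at a Benjamini-Hochberg adjusted p under 0.05 over all of them in edgeR's quasi-likelihood test.

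The 12 libraries held between 12687779 and 20947644 counts, with 58421 to 67490 features above 0, and 3 counts were worth 0.143 to 0.236 CPM. The 100 most abundant features took 20.1% to 39.6% of the counts. Within groups, Pearson's r of log2 CPM over the tested features lay between 0.853 and 0.966, and no 2 libraries of a group agreed within sampling noise. Captured tissue was checked with features that separated nucellus from integument at 32 DAP, in libraries that are not compared here. The 98 nucellus features summed to 478 to 1370 CPM in the 28 DAP integument libraries and 497 to 2060 CPM in the 18 DAP ones, against 20300 to 34300 CPM in nucellus libraries of both stages. The 214 integument features summed to 11200 to 14500 CPM at 28 DAP and 11800 to 15600 CPM at 18 DAP, against 761 to 1170 CPM in nucellus. None of these features was at 0 in all 12 libraries, and in each of the 12 the integument features summed to more than the nucellus features. In captured tissue of this kind, fewer cells of a type and less RNA per cell cannot be told apart.

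Replicates 1 and 2 of WT at 28 DAP were far apart, and replicate 3 lay between them. Replicate 1 had an r of log2 CPM of 0.853 with replicate 2 and 0.908 with replicate 3, against 0.915 between replicates 2 and 3. The integument library closest to replicate 1 was WT at 18 DAP replicate 3, at 0.948. Closest libraries from another stage were found elsewhere too: WT at 28 DAP replicates 2 and 3 were each closest to a WT library of 32 DAP, at 0.967 and 0.96. Across the 2 compared stages, MT 28 DAP replicate 1 was closest to WT 18 DAP replicate 2, at 0.928. WT 18 DAP replicate 2 was in turn closest to MT 28 DAP replicate 3, at 0.954. On the first principal component of the 12 libraries, which held 32.2% of their variance, WT 28 DAP replicate 1 lay at -143, beside MT 18 DAP replicate 3 at -183 and WT 18 DAP replicate 3 at -128. The other 9 libraries lay between -46.6 and 122, including 28 DAP libraries and 18 DAP libraries of both cultivars. Among them, WT 28 DAP replicate 2 lay at 120 and replicate 3 at -6.88. The summed nucellus features of WT 28 DAP replicate 1, 1370 CPM, were the highest of the 28 DAP integument libraries. MT 18 DAP replicate 3 had the highest of all 12, 2060 CPM. Same-numbered nucellus and integument libraries of a cultivar and stage deviated together from their group means: their r lay between 0.0525 and 0.482 over 18 pairs, and all 18 integument libraries had their highest r with the nucellus library of their own number. WT 28 DAP replicate 1 was among them, at 0.223. The 2 tissues are therefore not independent samples at this level, although the model treats all 36 libraries as independent. The label of WT 28 DAP replicate 1 was kept, and the main counts are given with all libraries and without this one. Values of named features are given with all libraries, and in part without this one too.

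Averaged over both cultivars, the integument at 28 DAP had no feature called changed against 18 DAP when all libraries were used, and 290 when WT 28 DAP replicate 1 was left out. Of these 290, 63 were higher and 227 lower at 28 DAP. With all libraries the edgeR count was 0 (0% of the tested features), the lowest adjusted p was 0.0736, and an unadjusted p under 0.05 was found for 5491 (9.58%). On the same libraries, 181 were called by DESeq2. Without the one library, the 290 called features were 0.506% of those tested, and 7193 (12.5%) had an unadjusted p under 0.05. The median size of the change over all tested features was 0.29 with it and 0.33 without it on the log2 scale. Fitting the compared libraries alone called 9 in place of 290, and fitting all integument libraries alone called 0.

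c91437_g1 was lower at 28 DAP in every library of both cultivars. c91437_g1 held 18.4, 21.6 and 16.2 CPM in MT at 28 DAP, against 145, 79.9 and 240 CPM in MT at 18 DAP. The WT libraries held 46.3, 13.8 and 20 CPM at 28 DAP, against 51.3, 48.2 and 81.5 CPM at 18 DAP. The highest WT value at 28 DAP, 46.3 CPM, was that of replicate 1 and lay just under the lowest 18 DAP value. The mean log2 change was -2.11 ± 0.38 (SE) with all libraries, at an edgeR adjusted p of 0.0736. Without WT 28 DAP replicate 1 it was -2.44 ± 0.40, at an edgeR adjusted p of 0.00403.

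c27457_g1, the second feature named on the lower side, showed tighter groups. It had 2.12, 2.17 and 2.36 CPM in MT at 28 DAP, against 6.07, 4.99 and 6.33 CPM in MT at 18 DAP. For WT the values were 4.38, 3.27 and 3.19 CPM at 28 DAP, against 7.3, 7.6 and 7.75 CPM at 18 DAP. Neither cultivar's groups overlapped, replicate 1 of WT included, as the choice of the feature required. Its mean log2 change was -1.22 ± 0.28 (SE) with all libraries (edgeR adjusted p = 0.173) and -1.30 ± 0.30 without that replicate (edgeR adjusted p = 0.0443). With all libraries the change was -1.38 ± 0.40 in MT and -1.06 ± 0.39 in WT, or -1.22 ± 0.45 in WT without that replicate.

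On the higher side, c68837_g1 had 13.3, 10.7 and 10.4 CPM in MT at 28 DAP, against 6.07, 4.99 and 3.94 CPM in MT at 18 DAP. WT libraries held 13.2, 26.4 and 10.8 CPM at 28 DAP, against 8.66, 4.86 and 7.87 CPM at 18 DAP. The groups did not overlap in either cultivar, as the choice of the feature required, and replicate 2 of WT was the highest library. The mean log2 change was 1.22 ± 0.27 (SE) with all libraries (edgeR adjusted p = 0.173) and 1.29 ± 0.29 without replicate 1 of WT (edgeR adjusted p = 0.0338). With all libraries the change was 1.19 ± 0.39 in MT and 1.24 ± 0.39 in WT, or 1.39 ± 0.42 in WT without that replicate. c280_g1 had 13.8, 10.4 and 12.9 CPM in MT at 28 DAP, against 8.66, 7.93 and 6.4 CPM in MT at 18 DAP. Its WT libraries held 5, 14 and 13.9 CPM at 28 DAP, against 4.4, 3.96 and 1.89 CPM at 18 DAP. The lowest WT value at 28 DAP was again that of replicate 1, close to the 18 DAP libraries. The mean log2 change of c280_g1 was 1.18 ± 0.31 (SE) with all libraries (edgeR adjusted p = 0.251) and 1.36 ± 0.31 without that replicate (edgeR adjusted p = 0.037). In nucellus at 32 DAP this feature was also 1.88 log2 units higher than in integument (edgeR adjusted p = 5.77e-05). Starting from all libraries, the 4 features named here were called in 2 to 7 of 25 alternative settings each.

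**Figure D1:**
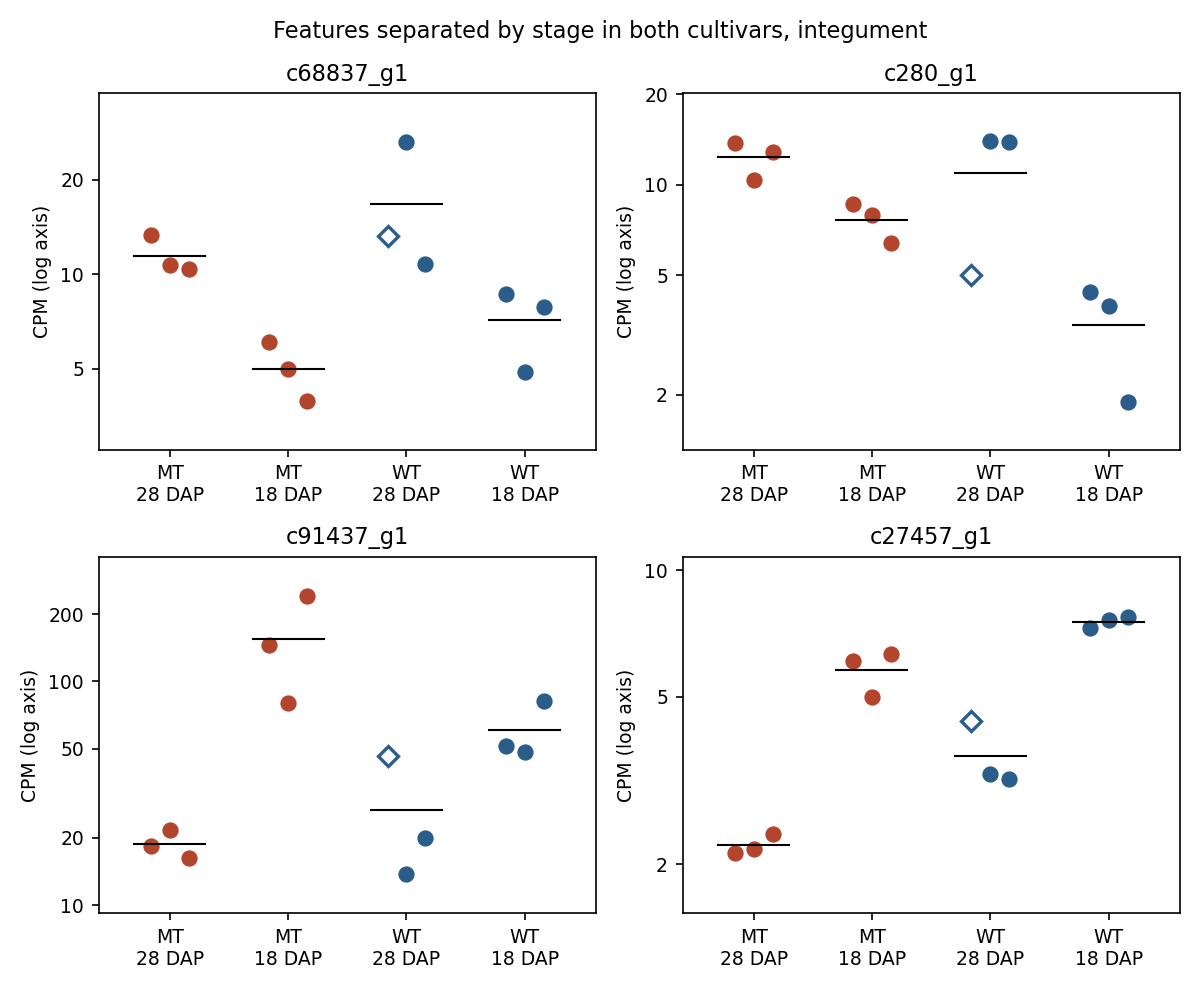
CPM (log axis) of the 4 features named for the mean of both cultivars, 1 point per library, in MT (red) and WT (blue) at 28 and 18 DAP; the black bar is the mean of the 3 libraries and the open diamond is WT 28 DAP replicate 1. In each panel the 28 DAP libraries lie on one side of the 18 DAP libraries of the same cultivar, since the features were chosen by this. For c91437_g1, c27457_g1 and c280_g1 the diamond is the WT 28 DAP point closest to the WT 18 DAP points.

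The 290 features called without WT 28 DAP replicate 1 covered a wide range of sizes and abundances. The 63 that rose had a median mean change of 1.17 log2 units, and the 227 that fell had a median of -2.57. Every called feature moved by at least 0.66 log2 units, and the largest rise was 4.38 and the largest fall 7.31 in size. By mean level over all libraries, 49 of the 63 that rose (77.8%) and 115 of the 227 that fell (50.7%) were above the median of the tested features. Their median implied lengths were 2068 and 1802 bases, against 1980 over all tested features. With the tested features cut into 4 equal groups by abundance, 0.286%, 0.614%, 0.544% and 0.579% were called, least abundant group first. Putting WT 28 DAP replicate 1 back moved the median change of the same 63 features to 1.03 and that of the 227 to -1.60. With it, all 63 and 197 of the 227 had an unadjusted p under 0.05 in edgeR's test, as 5491 of all tested features (9.58%) did, and none was called. The lists were chosen on the same libraries apart from this one, so these 2 counts are largely built in and are no result.

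In MT alone, 10 features were called with all libraries, 3 higher and 7 lower at 28 DAP. That was 0.0174% of those tested, and an unadjusted p under 0.05 was found for 8330 (14.5%). By DESeq2, 915 were called. Leaving out WT 28 DAP replicate 1, which is not an MT library and changed only the estimated spread and scaling, gave 99 called features (0.173%), 22 higher and 77 lower. All 10 were among the 99, and 8612 features (15%) then had an unadjusted p under 0.05. Both counts, 10 and 99, came to 0 when the compared libraries alone or all integument libraries alone were fitted. The 3 MT libraries of 28 DAP all lay above the 3 of 18 DAP for 6916 features (12.1%) and all below for 6631 (11.6%).

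c93268_g1 had 9.08, 22.6 and 18.6 CPM in MT at 28 DAP, against 3.54, 2.81 and 5.14 CPM in MT at 18 DAP. WT libraries ranged less, with 12.7, 15.1 and 12.4 CPM at 28 DAP, against 10.9, 12.9 and 11.2 CPM at 18 DAP. The MT groups were apart, as the choice of all features named for MT required. The WT groups overlapped and lay within the range of MT at 28 DAP. The log2 change was 2.13 ± 0.35 (SE) in MT (edgeR adjusted p = 0.025) and 0.20 ± 0.33 in WT, or 0.24 ± 0.38 in WT without replicate 1. c83852_g1 had 31.8, 34.8 and 31.6 CPM in MT at 28 DAP, against 13.5, 13.7 and 13.1 CPM in MT at 18 DAP. Its WT libraries held 21.3, 24.6 and 28 CPM at 28 DAP, against 17.3, 21 and 17.7 CPM at 18 DAP. The MT libraries of each stage were within a narrow range, and the WT libraries of both stages fell in the gap between them. For c83852_g1 the log2 change was 1.28 ± 0.21 (SE) in MT (edgeR adjusted p = 0.025) and 0.40 ± 0.21 in WT, or 0.49 ± 0.23 in WT without replicate 1.

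On the lower side, c35172_g1 had 5.07, 4.58 and 2.58 CPM in MT at 28 DAP, against 35, 29.6 and 102 CPM in MT at 18 DAP. For WT the values were 23.1, 5.2 and 13.3 CPM at 28 DAP, against 12.5, 10 and 23.2 CPM at 18 DAP. The WT groups overlapped. Its log2 change was -3.77 ± 0.66 (SE) in MT (edgeR adjusted p = 0.0328) and -0.14 ± 0.59 in WT, or -0.72 ± 0.65 in WT without replicate 1. c94789_g1 had 0.947, 0.241 and 0.752 CPM in MT at 28 DAP, against 6.72, 8.25 and 6.97 CPM in MT at 18 DAP. The WT libraries held 3.87, 0.554 and 0.65 CPM at 28 DAP, against 3.23, 1.42 and 4.14 CPM at 18 DAP. Replicate 1 of WT at 28 DAP lay among the 18 DAP libraries and the other 2 below them. The log2 change of c94789_g1 was -3.48 ± 0.60 (SE) in MT (edgeR adjusted p = 0.0328) and -0.78 ± 0.55 in WT, or -2.26 ± 0.57 in WT without replicate 1. Over the 12 compared libraries c94789_g1 had a mean of 1.04 log2 CPM, so it reached the abundance needed to be named through its level in nucellus. Both features were higher in nucellus than in integument at 32 DAP, by 1.82 log2 units for c35172_g1 (edgeR adjusted p = 0.00322) and 3.62 for c94789_g1 (edgeR adjusted p = 1.49e-07). The part of the summed nucellus features, given above for each stage, in these 2 changes was not tested. The 4 MT features were called in 16 to 17 of 25 alternative settings each and kept their sign in all of them.

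**Figure D2:**
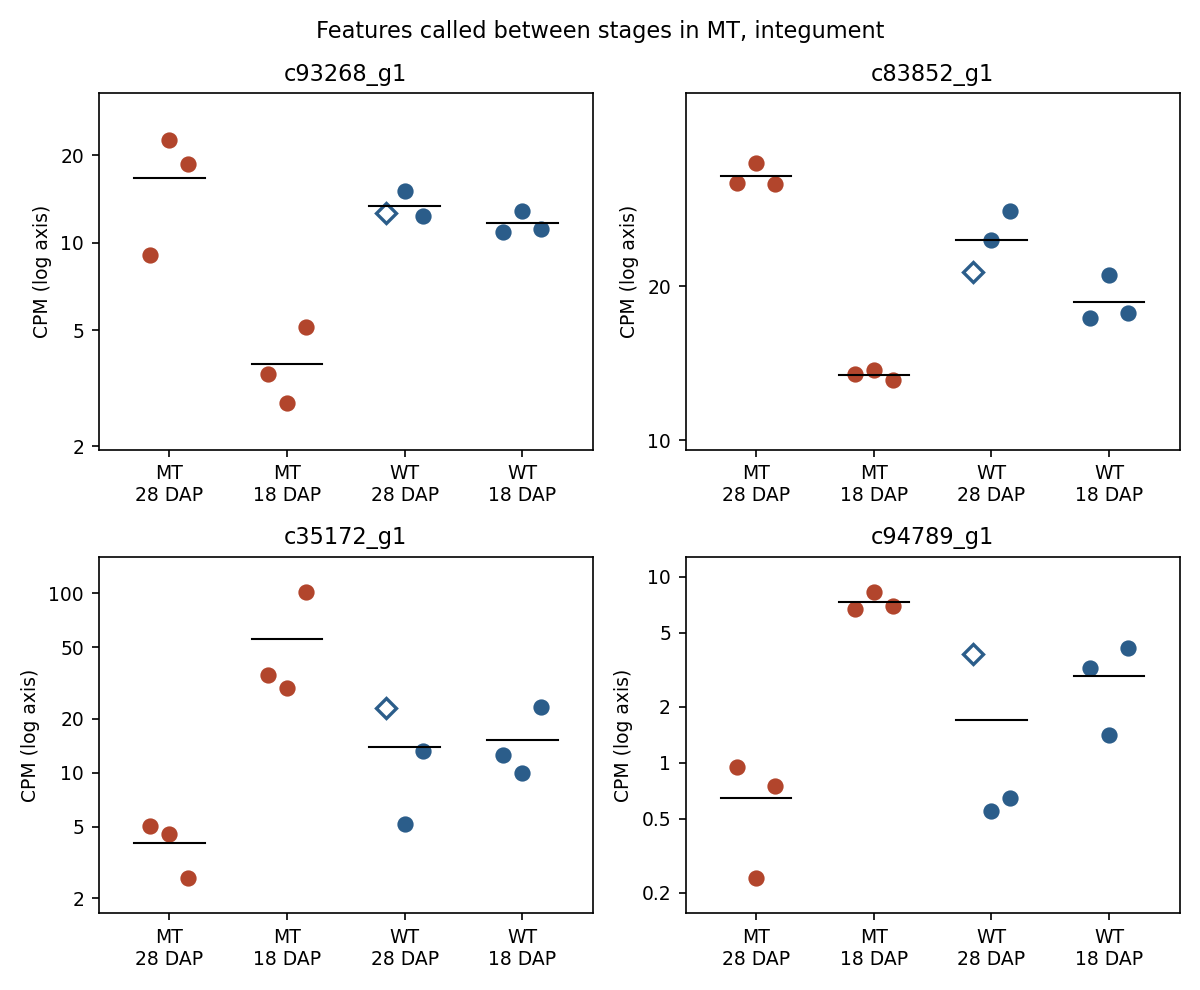
CPM (log axis) of the 4 features named for MT, drawn as in the plot for the mean of both cultivars: MT red, WT blue, black bar the mean of 3 libraries, open diamond WT 28 DAP replicate 1. The MT stages are apart in every panel, since the features were chosen by this, while the WT stages overlap for c93268_g1, c35172_g1 and c94789_g1.

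In WT alone, no feature was called, with or without replicate 1 of 28 DAP. With all libraries 1702 features (2.97%) had an unadjusted p under 0.05 in edgeR's test, and the lowest adjusted p was 1. Without the replicate, 2597 (4.53%) did and the lowest edgeR adjusted p was 0.518, with 0% called in both cases. By DESeq2, 2 were called with all libraries and 67 without the replicate. The WT libraries of 28 DAP all lay above those of 18 DAP for 2120 features (3.7%) and all below for 2317 (4.04%). With replicate 1 set aside, which leaves 2 libraries against 3 and so makes separation easier to reach, these were 5831 (10.2%) and 5763 (10%). If 2 and 3 libraries fell in random order, 10% of features would be apart in each direction, and fewer with 3 against 3. The rise in these counts is therefore no result. The 4 features below were named for their lowest unadjusted p on each side in the edgeR fit without replicate 1. They were taken among features of at least median abundance whose WT stages did not overlap. Their values are given with all libraries unless stated.

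c117645_g1 had 17.3, 25.1 and 99.9 CPM in WT at 28 DAP, against 0.129, 0.566 and 1.3 CPM in WT at 18 DAP. The MT libraries held 15.4, 3.79 and 61.6 CPM at 28 DAP, against 6.31, 10.4 and 0.352 CPM at 18 DAP. It varied widely within each group, and only the WT groups were apart. The log2 change in WT was 6.13 ± 1.26 (SE), and it missed the threshold there (edgeR adjusted p = 1). For the mean of both cultivars without WT 28 DAP replicate 1 it was 4.38 ± 0.82, at an edgeR adjusted p of 0.013. At least 1 WT library at 18 DAP, with 0.129 CPM, was below the level of 3 counts, so these fitted changes depend on the prior of the fit. c9101_g1 had 30.5, 67.1 and 57.2 CPM in WT at 28 DAP, against 29.7, 28.2 and 28.6 CPM in WT at 18 DAP. In MT it had 43.3, 58.7 and 65 CPM at 28 DAP, against 29.7, 31.3 and 23.2 CPM at 18 DAP. Apart from replicate 1 of WT, which was level with the 18 DAP libraries, every 28 DAP library was above every 18 DAP one. The mean log2 change of c9101_g1 over both cultivars was 0.91 ± 0.17 (SE) with all libraries (edgeR adjusted p = 0.0871) and 1.05 ± 0.16 without that replicate (edgeR adjusted p = 0.0033).

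On the lower side in WT, c16011_g1 had 7.63, 5.54 and 5.08 CPM at 28 DAP, against 18.9, 8.35 and 9.94 CPM at 18 DAP, a log2 change of -1.02 ± 0.28 (SE, edgeR adjusted p = 1). c18245_g1 had 10.6, 8.19 and 4.72 CPM in WT at 28 DAP, against 30.6, 18 and 11.5 CPM in WT at 18 DAP, a log2 change of -1.35 ± 0.39 (SE, edgeR adjusted p = 1). Without replicate 1 the WT changes were -1.22 ± 0.32 for c16011_g1 and -1.63 ± 0.45 for c18245_g1. Both had stages that did not overlap in WT, as their choice required. In MT their log2 changes were -0.36 ± 0.28 for c16011_g1 and 0.16 ± 0.39 for c18245_g1.

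Whether features changed alike in both cultivars depended on single WT libraries of 28 DAP. Across the 57344 tested features, the change in MT and the change in WT had a Pearson r of 0.0616 and a Spearman rho of 0.0428 with all libraries, and 50.9% of features had the same sign in both. Without replicate 1 of WT at 28 DAP these were 0.248, 0.217 and 57%. Leaving out replicate 2 in its place gave an r of -0.131 and 43.8% of features with the same sign. The error of r estimated by leaving out each library in turn (jackknife) was 0.331 with all libraries, more than either shift. Features are not independent replicates, and the correlation is a description of these libraries. No MT library is shared with WT, but all were scaled together. Among features above the median abundance r was -0.0123 with all libraries and 0.313 without replicate 1. For features at an unadjusted p under 0.05 in MT, 4360 of 8330 (52.3%) had the same sign in WT with all libraries and 5737 of 8612 (66.6%) without replicate 1. Features with an unadjusted p under 0.05 in both cultivars and the same sign numbered 184 with all libraries, 2.21% of the MT features and 10.8% of the WT features at that level, and 99 had opposite signs. Without replicate 1, 707 shared the sign, 8.21% and 27.2% of the features at that level in MT and WT, and 87 had opposite signs.

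**Figure D3:**
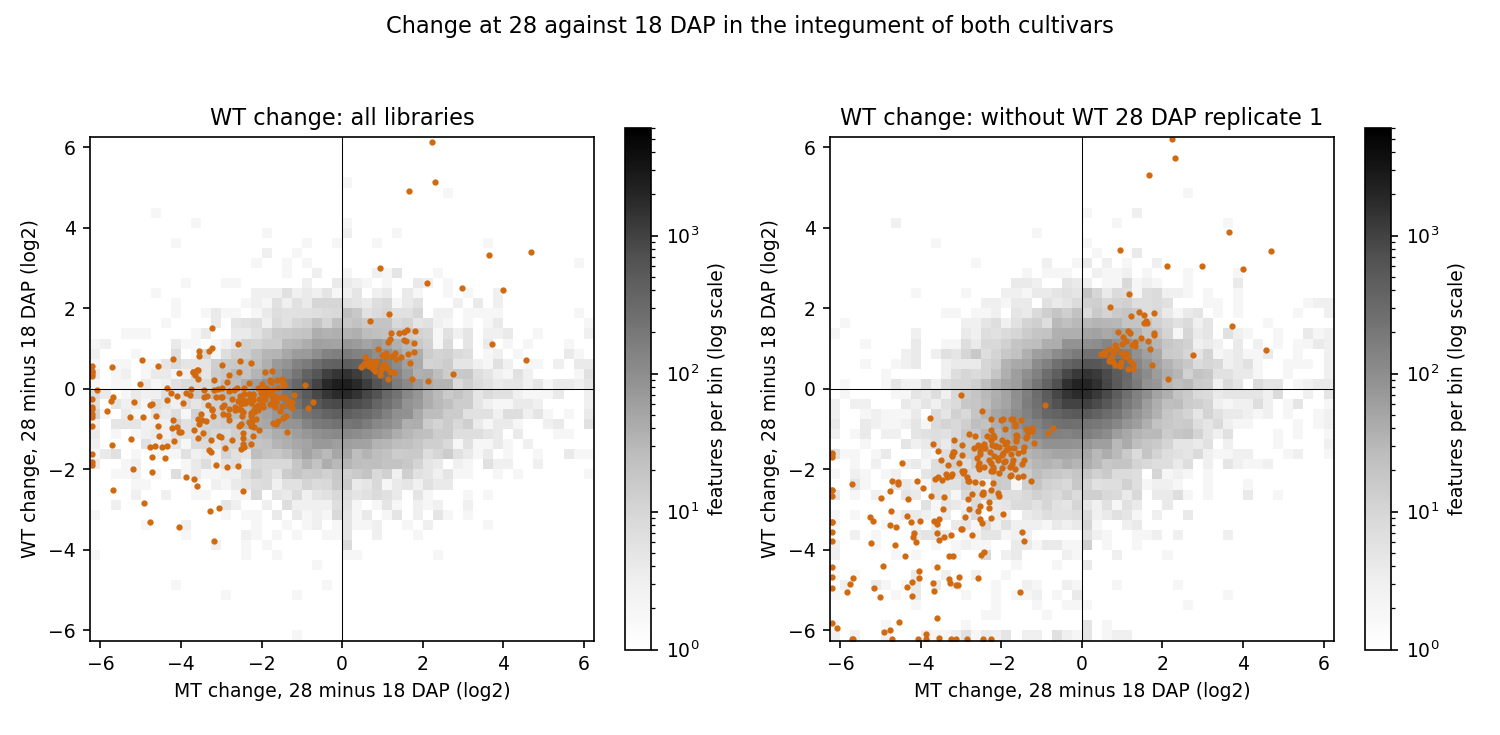
Log2 change at 28 against 18 DAP in MT (horizontal) and WT (vertical) of the tested features, as counts per bin in grey on a log colour scale, with the 290 features called without WT 28 DAP replicate 1 in orange, all libraries on the left and that replicate left out on the right; values beyond 6.2 are drawn at the edge. With all libraries r was 0.0616, and 178 of the 227 features that fell had a negative change in both cultivars; without the replicate r was 0.248. The orange points were chosen in the right-hand comparison, so their place there is no result.

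The 3 WT libraries of 28 DAP were also set one by one against the WT mean of 18 DAP. Of the 8330 features at an unadjusted p under 0.05 in MT, replicate 1 had the MT sign for 32.9%, replicate 2 for 75.9% and replicate 3 for 50.2%. Over all tested features, r with the MT change was -0.255 for replicate 1, 0.407 for replicate 2 and 0.0329 for replicate 3. Replicate 1 thus had a negative r with the MT change, replicate 2 a positive one and replicate 3 one near 0. The 77 features that fell and the 22 that rose in MT were called without replicate 1 in the estimated spread. With it in, 7 and 3 were called. The choice therefore depended on leaving replicate 1 out, so the split between the WT libraries on these features may be partly built in. Of the 77 that fell, 15 were lower than the WT mean of 18 DAP in replicate 1, 75 in replicate 2 and 66 in replicate 3. Of the 22 that rose in MT, 8 were higher in replicate 1, 10 in replicate 2 and 12 in replicate 3.

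The features called in MT can be read in WT, whose libraries did not enter their MT change but did enter the estimated spread. The lists are those called without replicate 1, so a departure of that replicate could help a feature to be called. The counts with and without it are therefore a description. Of all 57344 tested features, 27759 had a positive change in WT without replicate 1 and 29286 with it. Of the 77 that fell in MT, 75 had a negative change in WT without replicate 1 and 53 with it. At an unadjusted p under 0.05, 47 were lower in WT without the replicate, where 2.58% of all tested features were, and 4 with it, where 1.65% were. Their median WT change was -1.55 without the replicate and -0.24 with it, against a median MT change of -3.05. Of the 22 that rose in MT, 11 had a positive WT change without the replicate and 12 with it, close to the share over all tested features. In WT, 3 of the 22 were higher at an unadjusted p under 0.05 without the replicate and 1 with it, where 1.95% and 1.31% of all tested features were. Their median WT change was -0.01 without it and 0.15 with it, against 1.81 in MT.

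The difference between cultivars, the change in MT minus the change in WT, was called for no feature (0%) with or without WT 28 DAP replicate 1. At an unadjusted p under 0.05 there were 4739 features (8.26%) with all libraries, the lowest edgeR adjusted p was 0.29, and 28 were called by DESeq2. Without the replicate it was 3292 (5.74%), a lowest edgeR adjusted p of 0.711 and 14 by DESeq2. Most intervals were too wide to show that the cultivars changed alike. The 95% interval of the difference lay within 1 log2 unit of 0 for 4914 features (8.57%) with all libraries and 4066 (7.09%) without the replicate, and its median reach on either side of the estimate was 1.44 and 1.51. Above the median abundance it was 1.00 with all libraries and 1.06 without the replicate. Of the features called in the mean without the replicate, 9 of the 63 that rose and 22 of the 227 that fell had an unadjusted p under 0.05 for the difference.

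By separation of libraries, 284 features (0.495%) were higher at 28 DAP in both cultivars with no overlap, 191 (0.333%) were lower in both, and 380 (0.663%) were separated in opposite directions. The 380 were 200 higher in MT and lower in WT (0.349%) and 180 lower in MT and higher in WT (0.314%). Without WT 28 DAP replicate 1, 1104 (1.93%) were higher in both, 924 (1.61%) lower in both and 742 (1.29%) opposite.

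The features named for the difference had the lowest unadjusted p among the 380 in the fit without WT 28 DAP replicate 1, since none was called. Their differences are given with all libraries. Without the replicate they were 2.24 for c64052_g1, 2.61 for c58993_g1, -1.61 for c31091_g1 and -1.13 for c66260_g1. c64052_g1 had 9.02, 20.6 and 12.9 CPM in MT at 28 DAP, against 5.72, 4.35 and 2.81 CPM in MT at 18 DAP. In WT it had 9.6, 13.6 and 7.15 CPM at 28 DAP, against 16, 14.9 and 13.7 CPM at 18 DAP. The stages were ordered in opposite ways, and at 18 DAP the cultivars were apart. Its difference, MT minus WT change, was 2.27 log2 units with a 95% interval of 1.18 to 3.36 (edgeR adjusted p = 0.518). c58993_g1 had 5.07, 19 and 10.6 CPM in MT at 28 DAP, against 3.42, 3.07 and 4.29 CPM in MT at 18 DAP. The WT libraries held 10.2, 7.81 and 3.78 CPM at 28 DAP, against 10.3, 11.7 and 11.2 CPM at 18 DAP, and the difference was 2.29 (95% interval 0.95 to 3.64, edgeR adjusted p = 0.523). Replicate 1 of WT lay next to the 18 DAP libraries.

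On the negative side, c31091_g1 had 18.3, 21.1 and 17.3 CPM in MT at 28 DAP, against 29.2, 27.6 and 40 CPM in MT at 18 DAP. In WT it had 25.9, 23 and 42.3 CPM at 28 DAP, against 16.2, 16.6 and 22.1 CPM at 18 DAP. Its difference was -1.50 log2 units (95% interval -2.34 to -0.67, edgeR adjusted p = 0.518). The MT and WT stages were again ordered oppositely. c66260_g1 had 26.5, 25.1 and 30.9 CPM in MT at 28 DAP, against 42.8, 33.9 and 44.5 CPM in MT at 18 DAP. In WT it had 45.1, 42.1 and 58.9 CPM at 28 DAP, against 31.2, 37.4 and 33.2 CPM at 18 DAP, and the difference was -1.08 (95% interval -1.67 to -0.49, edgeR adjusted p = 0.518).

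The 227 features that fell in the mean without WT 28 DAP replicate 1 had, as an average over the list, 1.06, 0.43 and 0.53 log2 CPM in MT at 28 DAP, against 3.33, 2.88 and 4.14 in MT at 18 DAP. In WT the average was 3.92, 0.16 and 1.13 log2 CPM at 28 DAP, against 2.49, 2.17 and 4.02 at 18 DAP. The list was chosen on these libraries apart from WT 28 DAP replicate 1, whose 3.92 lay among the 18 DAP values. The highest levels in the comparison were those of MT 18 DAP replicate 3, WT 18 DAP replicate 3 and WT 28 DAP replicate 1, the 3 libraries at the low end of the first principal component. Of the 227, 46 (20.3%) were called higher in nucellus than in integument at 32 DAP, where 4.94% of all tested features were, and 37 (16.3%) were called higher in integument, where 8.64% were. The summed nucellus features had a median of 738 CPM at 28 DAP and 1070 CPM at 18 DAP over both cultivars, but only MT moved this way. In MT they were 861, 478 and 615 CPM at 28 DAP, against 1040, 1120 and 2060 CPM at 18 DAP. In WT they were 1370, 528 and 1110 CPM at 28 DAP, against 793, 497 and 1100 CPM at 18 DAP. The part of these sums in the result was not tested. The 63 features that rose averaged 3.97, 4.14 and 4.29 log2 CPM in MT at 28 DAP, against 2.97, 3.03 and 2.41 in MT at 18 DAP. In WT they averaged 3.01, 4.31 and 4.47 at 28 DAP, against 2.91, 3.26 and 2.76 at 18 DAP. Of the 63, 4 (6.35%) were called higher in nucellus and 12 (19%) higher in integument at 32 DAP.

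Integument at 32 DAP, which played no part in choosing the lists beyond the estimate of the spread, separated the cultivars on them. The 227 features averaged 2.58, 4.08 and 3.29 log2 CPM in MT at 32 DAP, against 0.73, -0.02 and 0.03 in WT at 32 DAP. In the same libraries the summed nucellus features were 885, 1470 and 1680 CPM in MT at 32 DAP, against 1080, 521 and 492 CPM in WT at 32 DAP. The summed integument features were 11400, 8230 and 11000 CPM in MT, against 15800, 11100 and 11200 CPM in WT, with MT replicate 2 the lowest. Those sums chose their features from these libraries, and the part of either in the difference was not tested. MT at 32 DAP was near the MT level of 18 DAP, and WT at 32 DAP near that of its 28 DAP replicates 2 and 3. All 3 MT libraries lay above all 3 WT libraries for 189 of the 227 (83.3%), against 9.99% of all tested features. MT was called higher than WT for 155 of them (68.3%), against 1.49% of all tested features. For the 63 that rose, the MT libraries of 32 DAP averaged 3.87, 3.19 and 3.33 log2 CPM, against 4.32, 4.27 and 4.27 in WT. All MT libraries lay below all WT libraries for 32 of the 63 (50.8%), against 9.96% of all tested features, and MT was called lower for 8 (12.7%), against 0.326%. The 77 features that fell in MT averaged 0.91, 0.50 and 0.65 log2 CPM in MT at 28 DAP, against 3.57, 3.15 and 4.29 in MT at 18 DAP. At 32 DAP they averaged 2.58, 3.91 and 3.24 in MT and 1.11, 0.66 and 0.58 in WT.

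**Figure D4:**
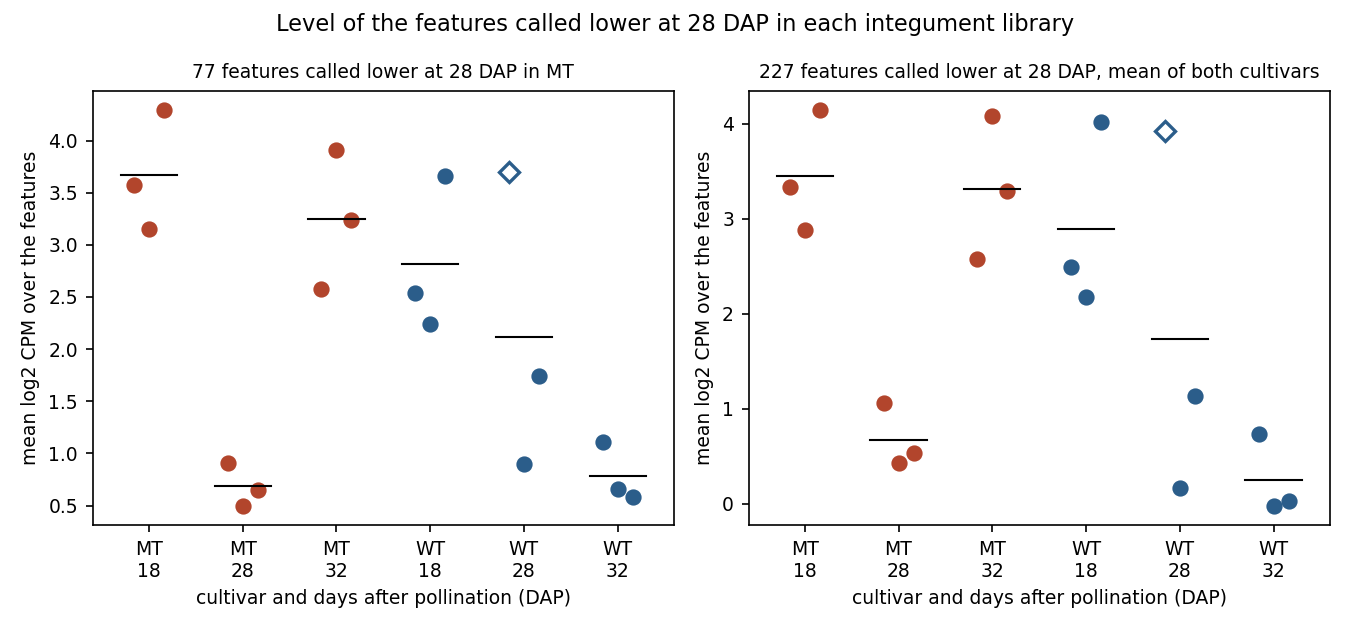
Average log2 CPM over the 77 features that fell in MT (left) and the 227 that fell in the mean of both cultivars (right), both without WT 28 DAP replicate 1, in each integument library of MT (red) and WT (blue) at 18, 28 and 32 DAP; the black bar is the mean of 3 libraries and the open diamond is WT 28 DAP replicate 1. For the 227 features the diamond stands at 3.92, the other WT 28 DAP libraries at 0.16 and 1.13, and MT and WT do not overlap at 32 DAP.

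The nucellus libraries of the same 2 stages are not independent of the integument ones, as their same-numbered libraries deviated together. The shares below are therefore a description. The nucellus change includes WT nucellus 28 DAP replicate 1, whose median r with its group, 0.812, was the lowest of all 36 libraries. Its TMM factor of 0.592 was also the lowest, and its 100 most abundant features took 51.7% of the counts. The nucellus change without that library was not tested. Of the 63 features that rose in integument, 57 (90.5%) also had a positive change in nucellus, as 50.2% of all tested features did. An unadjusted p under 0.05 in that direction was found for 31 of the 63 (49.2%), against 7.71% of all tested features. Of the 227 that fell, 192 (84.6%) had a negative change in nucellus, and 46 (20.3%) had an unadjusted p under 0.05, against 6.22% of all tested features. The changes in nucellus were smaller, with a median of 0.47 for the 63 and -0.50 for the 227, and the features called there in the same direction were 2 of the 63 (3.17%), against 0.0767% of all tested features, and 2 of the 227 (0.881%), against 0.0628%. Whether the tissues changed by different amounts was not tested.

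Several single libraries decided how many features were called. Starting from all libraries, leaving out WT 28 DAP replicate 1 gave 290 features for the mean of both cultivars, leaving out WT 18 DAP replicate 2 gave 6, and each of the other 10 gave 0. With WT 28 DAP replicate 1 already out, leaving out WT 28 DAP replicate 2 as well brought the count to 0. Leaving out replicate 3 of any group lowered it too, to 61 for WT at 18 DAP, 73 for MT at 18 DAP, 74 for MT at 28 DAP and 93 for WT at 28 DAP. Leaving out replicate 2 gave 94 for MT at 28 DAP and 534 for WT at 18 DAP. The 4 remaining libraries gave 205 to 380. Leaving out WT 28 DAP replicate 2 or 3 in addition to replicate 1 leaves 1 library in that group, which is then taken to vary like the other groups. For MT with all libraries, the count of 10 came to 0 when MT 18 DAP replicate 3 was left out, and likewise for replicates 2 and 3 of MT at 28 DAP. The same count came to 75 when WT 28 DAP replicate 2 was left out, 29 for WT 18 DAP replicate 3, and 17 and 16 for replicate 1 of MT at 28 and at 18 DAP. From the 99 in MT after WT 28 DAP replicate 1 was set aside, the number fell to 43 when replicate 1 of MT at 18 DAP was left out, to 4 for replicate 3 of the same group, and to 0 for replicate 2 or replicate 3 of MT at 28 DAP. For WT 18 DAP replicate 3 it was 163. For the correlation of both cultivars' changes, r was -0.131 with all libraries but WT 28 DAP replicate 2, and with replicate 1 already out it lay between 0.0376 without WT 28 DAP replicate 2 and 0.364 without WT 28 DAP replicate 3.

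**Figure D5:**
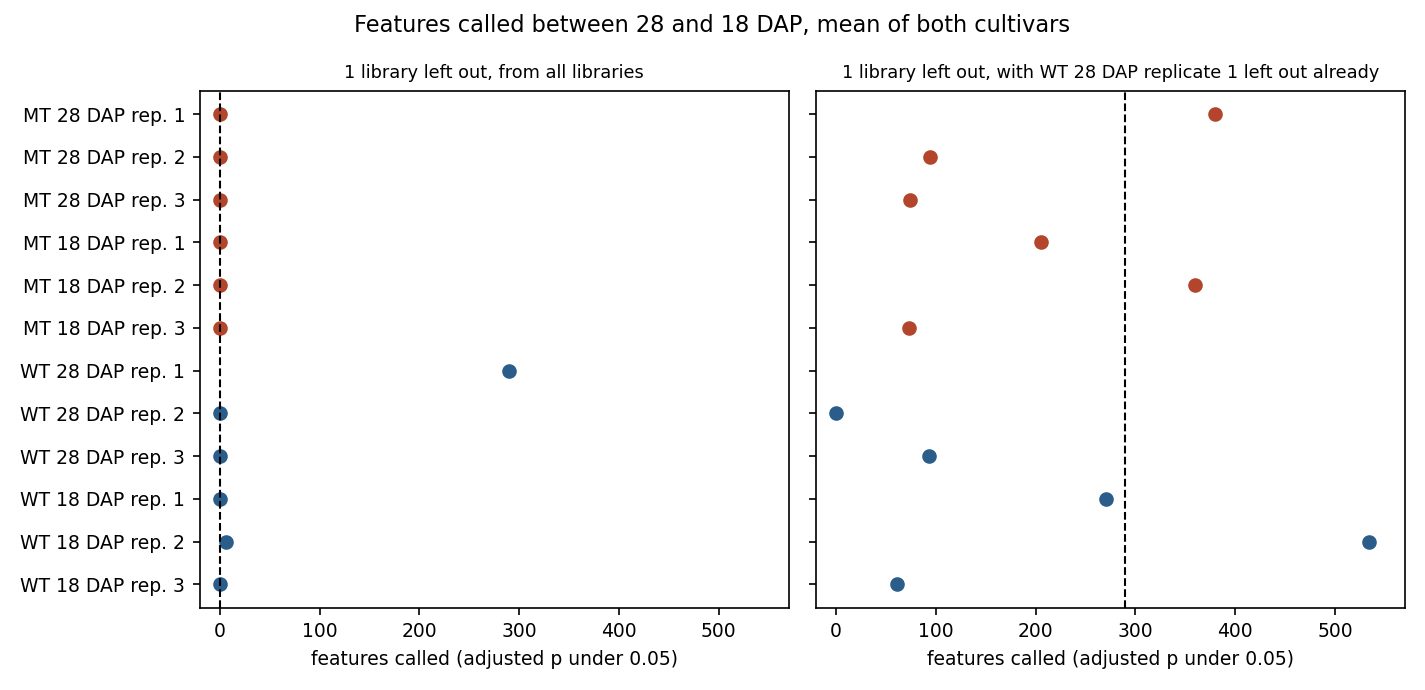
Number of features called for the mean of both cultivars (edgeR adjusted p under 0.05) after leaving out the library named on the vertical axis, starting from all libraries (left) or with WT 28 DAP replicate 1 already out (right), with MT libraries red and WT libraries blue; the dashed line is the count before leaving it out, 0 on the left and 290 on the right. On the left only WT 28 DAP replicate 1 and WT 18 DAP replicate 2 give a count above 0; on the right the counts spread between 0 and 534.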

How the data were processed

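Per the labels' protocols, RNA of laser-captured cells was reverse transcribed with random primers, amplified with SPIA (Ovation RNA-seq System V2) and read from both ends on 2 models of Illumina instrument; which library ran on which is not given, so instrument and library cannot be told apart. Per the submitters' processing notes, cutadapt, Bowtie2, RSEM and DESeq were used; neither versions nor the reference sequence is given in the sources used here. For the same features, the authors deposited RSEM expected counts, here whole numbers and so taken to be rounded, and FPKM. RSEM divides reads among similar sequences, so features with near-identical copies are uncertain.

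Counts were used as deposited. edgeR 4.0.16 (R 4.3.3; TMM, filterByExpr over 12 groups, robust quasi-likelihood test, 12 group means over all 36 libraries) tested the mean of both cultivars' changes, each change and their difference; 57344 features passed and held 99.72% to 99.95% of the counts of the 12 libraries, and 34664 features were at 0 everywhere. SE was the log2 change divided by the square root of F. List averages used log2 CPM with a prior count of 2. The tissue lists took features called between tissues at 32 DAP with a log2 difference over 3 and at least median abundance. Named features had at least median abundance over all 36 libraries and stages without overlap. They were called in their contrast without WT 28 DAP replicate 1 (MT: with all libraries) and had the largest change. Where none was called, the lowest unadjusted p without that replicate was taken. At most 2 were named in each direction. Implied length came from counts and FPKM. Alternatives used limma 3.58.1 (voom with quality weights, and log2(FPKM + 1) or log2(FPKM + 0.1)) and DESeq2 1.42.0. Members and lists were chosen with earlier results of these data known. Replicate numbers were checked for pairing: deviations of same-numbered libraries at 28 and 18 DAP correlated between -0.314 and 0.356 over 6 pairs, so they were not used as pairs across stages. Between tissues of a cultivar and stage, 17 of 18 same-numbered pairs had an r over 0.1; a limma voom fit with that correlation was added after seeing the data. P-values measure the spread between these libraries. Counting limits such as 3 counts cover counting error only, since amplified reads are not independent molecules.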

Additional observations from a re-analysis of the deposited data

How the results depend on the processing

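With all libraries, the mean of both cultivars gave 0 called features in the fit reported. It gave 1 with no filter on low counts, 7 with the replicate block, and 61 and 145 on log2(FPKM + 0.1) and log2(FPKM + 1). DESeq2 gave 181 and voom with quality weights 1233. By voom, the text below means that weighted fit unless stated. MT gave 10, against 0 from the compared libraries only, 0 from integument libraries only, 18 with the replicate block, 163 and 286 on the 2 FPKM scales, 915 by DESeq2 and 8561 by voom. WT gave 2 by DESeq2. The difference between cultivars gave 28 by DESeq2 and 345 by voom. Without WT 28 DAP replicate 1, the mean gave 290, against 9 from the compared libraries only, 0 from integument libraries only, 551 and 780 on the FPKM scales, 1183 by DESeq2 and 1821 by voom. MT gave 99, against 0 from the compared libraries only and 0 from integument libraries only, 416 and 558 on the FPKM scales, 1264 by DESeq2 and 8751 by voom. WT gave 2 and 29 on the FPKM scales and 67 by DESeq2, and the difference gave 14 by DESeq2. Features with the same change in nucellus numbered 77, against 171 and 180 on the FPKM scales, 330 by DESeq2 and 711 by voom. The split of higher to lower calls for the mean without the replicate was 63 to 227, against 742 to 1079 by voom, 337 to 846 by DESeq2, 113 to 667 and 41 to 510 on log2(FPKM + 1) and log2(FPKM + 0.1). Of the 290 features, 290 were also called by DESeq2, 283 with other size factors, 266 by voom, 225 with the replicate block, 9 from the compared libraries only and 0 from integument libraries only. A voom fit with the correlation of same-numbered tissues, chosen after seeing the data, estimated that correlation as 0.321 with all libraries and 0.413 without the replicate. It gave 1 for the mean and 6 for MT with all libraries, and 241 and 38 without the replicate. Voom without it or quality weights gave 0 and 0, and 342 and 73. Without the replicate, 146 of the 290 features were also called by voom with that correlation, and 179 by voom without it or quality weights. The cause of these shifts was not tested.

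Leaving out 1 library at a time gave 0 to 290 for the mean, 0 to 99 for MT, 0 to 0 for WT, 0 to 1 for the difference, an r of -0.131 to 0.248 and a same-sign share of 43.8% to 57%. With WT 28 DAP replicate 1 already out, the ranges were 0 to 534, 0 to 163, 0 to 0, 0 to 0, 0.0376 to 0.364 and 49.2% to 62.3%, and 0 to 154 for the features with the same change in nucellus. Of the 16 named features, none changed sign in its contrast under these settings. Across the stages compared, the replicate numbers share no more than a number: 2 of 6 integument libraries of 28 DAP correlated best with their own number, and the block moved the mean count from 0 to 7. A depth of 3 counts at 0.143 to 0.236 CPM limits the least abundant features.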
